A study of Mus musculus with 12 samples.

Results

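The 10 genes described here carry iron through a maturing red cell, from the receptor at the surface to the mitochondrion, the ferritin store and the exporter. They are Tfrc, Tfr2, Steap3, Slc11a2, Slc25a37, Slc25a28, Ftl1, Fth1, Ncoa4 and Slc40a1. They were picked by gene name for their part in iron handling, with earlier results of these data known. Each was found in 1 of the 55487 rows of every table. RNA came from G1E-ER4, a single mouse erythroid progenitor line. It has no working Gata1 gene of its own and holds a GATA1 protein joined to the hormone-binding domain of the estrogen receptor, through which estradiol sets off red cell maturation. All 12 cultures, controls included, grew with serum, 2 U/mL erythropoietin and medium conditioned by Kit ligand-producing cells, were given 100 nM β-estradiol, and were harvested after 24 h. The 3 treatments started together with estradiol and had 3 libraries each, as had the control. One group received 50 µM DTPA, a metal chelator applied to make the cells zinc deficient. Another received 50 µM DFO, an iron chelator. A further group received 0.2 mM SA, applied to block ALAD and so to limit protoporphyrin. The control group received none of the 3 agents. The protocol text gives 50 µM DFO as the agent for ALAD inhibition too, whereas titles and treatment tags give 0.2 mM SA, and the titles were followed. The titles call the 3 libraries of a group biological replicates. All belong to 1 line, so p-values measure the spread between cultures of that line.

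Transferrin carries ferric iron to the transferrin receptor, and the complex is taken into endosomes, where iron is released, reduced by STEAP3 and moved to the cytosol by DMT1. Mitoferrins pass it into the mitochondrion for heme and iron-sulfur clusters, ferritin holds the surplus, NCOA4 brings ferritin to the lysosome for release, and ferroportin exports iron from the cell. When iron is scarce, iron regulatory proteins bind hairpins named iron-responsive elements. Binding in the 3′ UTR of the transferrin receptor mRNA protects it from decay, whereas binding in the 5′ UTR of ferritin or ferroportin mRNAs blocks their translation. RNA levels can carry the first of these effects but not the second. TPM does not tell a change in mRNA decay from one in transcription, and binding of these proteins was not measured.

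The hairpins are shown because they are the elements through which the control just described acts. A search was made for a C, 5 bases of any kind, CAGTGN and 5 further bases, in which both runs of 5 had to pair with each other, G-T pairs included. It was run on the transcript strand alone, since the element acts in RNA, over the UTRs of GENCODE M21 basic protein-coding transcripts (GRCm38, the same assembly as mm10). It was found in 4 of the 10 genes. Each window below has 30 bases, read 5′ to 3′ along the transcript in DNA letters, and capitals mark the C before the upper stem and the 6 loop bases. In 5′ UTRs there was 1 window each, in Ftl1 at chr7:45459778-45459807 on the minus strand, in Fth1 at chr19:9982732-9982761 on the plus strand and in Slc40a1 at chr1:45925464-45925493 on the minus strand.
Ftl1: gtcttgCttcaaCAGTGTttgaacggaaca
Fth1: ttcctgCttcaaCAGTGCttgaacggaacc
Slc40a1: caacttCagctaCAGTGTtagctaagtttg
The Tfrc 3′ UTR, in exon 19 of 19, held 4 windows on the plus strand, at chr16:32631219-32631248, chr16:32631598-32631627, chr16:32631663-32631692 and chr16:32631710-32631739, given in that order.
Tfrc a: aattatCggaagCAGTGCcttccataatta
Tfrc b: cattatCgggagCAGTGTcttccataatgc
Tfrc c: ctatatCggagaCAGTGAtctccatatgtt
Tfrc d: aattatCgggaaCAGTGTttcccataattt
The Ftl1 and Fth1 windows had the same upper stem, and the 4 Tfrc windows had 4 different ones. Over the whole annotation, 28 of 20544 genes (0.136%) held the pattern in a 5′ UTR and 127 of 20920 (0.607%) in a 3′ UTR. Among 3′ UTRs close in length to that of Tfrc, 1.29% held it. Among 5′ UTRs close in length to those of Ftl1, Fth1 and Slc40a1, the shares were 0.123% for Ftl1, 0.280% for Fth1 and 0.184% for Slc40a1. The full paired pattern was not matched in the searched UTRs of Tfr2, Steap3, Slc11a2, Slc25a37, Slc25a28 or Ncoa4. The search misses elements with another stem, such as the 3′ element known for an Slc11a2 mRNA, whose upper stem has a bulge. It also misses elements whose loop is not CAGTGN. The windows found in a gene, Tfrc included, may therefore be fewer than its elements. The letters a to d only order the windows shown and are not names of known elements.

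Values are TPM, a length-scaled share of the RNA in a library. Depth, recovered from the steps between TPM values, was between 19867656 and 24344725 reads per library, and the 10 genes rested on between 400 reads (Tfr2) and 263236 reads (Ftl1). Replicates of the 10 genes were close, with an SD of 0.611% to 9.31% of the mean for a gene in a group. Of 14 erythroid markers 13 were found, all above 1 TPM. Their sum was 19316 to 28158 TPM in DTPA cells, 17856 to 18524 in DFO cells, 16877 to 19213 in SA cells and 21620 to 23401 in control cells, most of it from globins and Alas2. The sums include Hbb-bt, which varied widely between replicates. It averaged 6002 ± 4561 TPM in DTPA cells, 1313 ± 225 in DFO cells, 1698 ± 1343 in SA cells and 2684 ± 587 in control cells. By single genes, 2 of the 13 were called higher and 9 lower with DTPA (3 and 8 under median-of-ratios scaling), 0 and 6 with DFO (0 and 7), and 0 and 6 with SA (0 and 8), with a median log2 fold change of -0.75 with DTPA, -0.12 with DFO and -0.12 with SA. Over all tested genes the shares called higher and lower were 23.5% and 42.1% with DTPA, 8.39% and 2.28% with DFO, and 15.4% and 6.74% with SA. Slc4a1, the red cell anion exchanger, averaged 45.5 ± 3.3 TPM in DTPA cells, 461 ± 13 in DFO cells, 520 ± 1.1 in SA cells and 718 ± 33 in control cells. The Gata1 row averaged 1058 ± 26 TPM in DTPA cells, 2230 ± 35 in DFO cells, 2126 ± 58 in SA cells and 2501 ± 69 in control cells. Reads of the introduced GATA1 fusion can fall in this row, and they were not told apart from reads of the cells' own gene. Epor, the erythropoietin receptor, averaged 79.5 ± 4.1 TPM in DTPA cells, 153 ± 1.4 in DFO cells, 140 ± 2.6 in SA cells and 153 ± 2.4 in control cells. Kel and Alas2 were the 2 called higher with DTPA, with log2 fold changes of 1.39 (adjusted p = 4.70e-08) and 0.40 (adjusted p = 8.26e-10). Klf1 (0.06, adjusted p = 0.0650) and Hbb-bt (0.92, adjusted p = 0.163) were not called. Erythroid markers that were mostly but not all lower therefore accompany the DTPA values of the iron genes below. Of 10 macrophage markers 7 were at 0 in every library (Adgre1, Mrc1, Marco, Cd163, Itgam, Lyz2 and Spic), and the list summed to at most 3.32 TPM. Marker sums of 3 other blood lineages were higher with DTPA. The 8 megakaryocyte markers summed to 36.5 to 45.8 TPM in DTPA cells, 10.3 to 10.9 in DFO cells, 8.27 to 9.87 in SA cells and 8.23 to 9.34 in control cells, with Ppbp at 0. The 8 mast cell markers summed to 41.0 to 48.0 TPM in DTPA cells, 26.9 to 28.2 in DFO cells, 34.6 to 37.6 in SA cells and 25.7 to 28.3 in control cells, with Mcpt8 and Fcer1a at 0. Nearly all of that sum was Gata2, which lay between 25.5 and 44.7 TPM. The 8 lymphoid markers summed to 1.37 to 2.04 TPM in DTPA cells, 0.369 to 0.777 in DFO cells, 0.525 to 0.900 in SA cells and 0.361 to 0.757 in control cells, with Cd8a, Ms4a1, Cd79b and Il7r at 0. Cd79a, the 1 lymphoid marker tested, was called higher with DTPA (log2 fold change 0.74, adjusted p = 0.00353). The part of these shifts in the results below was not tested, and in bulk RNA fewer cells of a type cannot be told apart from less RNA per cell.

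A gene was called higher or lower when its adjusted p-value (limma on log2(TPM + 1), Benjamini-Hochberg over 11920 genes) was under 0.05, and all 10 passed the filter of 1 TPM in at least 3 libraries. With DTPA 8 of the 10 were called, 4 higher and 4 lower, where 65.5% of all tested genes were called. With DFO 4 were called, 1 higher and 3 lower (2 in all with no filter on low values), against a background of 10.7%. With SA 6 were called, 2 higher and 4 lower, against a background of 22.2%. Treated libraries did not overlap the controls for 8 genes with DTPA, 7 with DFO and 8 with SA, where the share of all tested genes was 69.5% with DTPA, 30.2% with DFO and 38.5% with SA. The DTPA counts are thus nearer to the share of all genes than the DFO and SA counts are to theirs. Because the 10 genes were chosen with earlier results of these data known, these shares do not test for an excess of calls. The median log2 fold change of the 10 genes was 0.03 with DTPA (-0.11 over all tested genes), 0.04 with DFO (0.05) and -0.10 with SA (0.05). These comparisons use the same 3 control libraries. The median of all genes depends on scaling: size factors from median-of-ratios scaling moved it by 0.11 in DTPA against control, by -0.05 in DFO against control and by -0.05 in SA against control. They also turned the split of all calls from 2796 higher and 5015 lower to 3784 and 3941 for DTPA, from 1000 and 272 to 420 and 654 for DFO, and from 1839 and 804 to 1108 and 1663 for SA. Calls of the 10 genes that kept their direction under TPM as deposited, median-of-ratios and trimmed-mean scaling were 4 higher and 2 lower with DTPA, 1 higher and 3 lower with DFO, and 1 higher and 4 lower with SA.

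**Figure D1:**
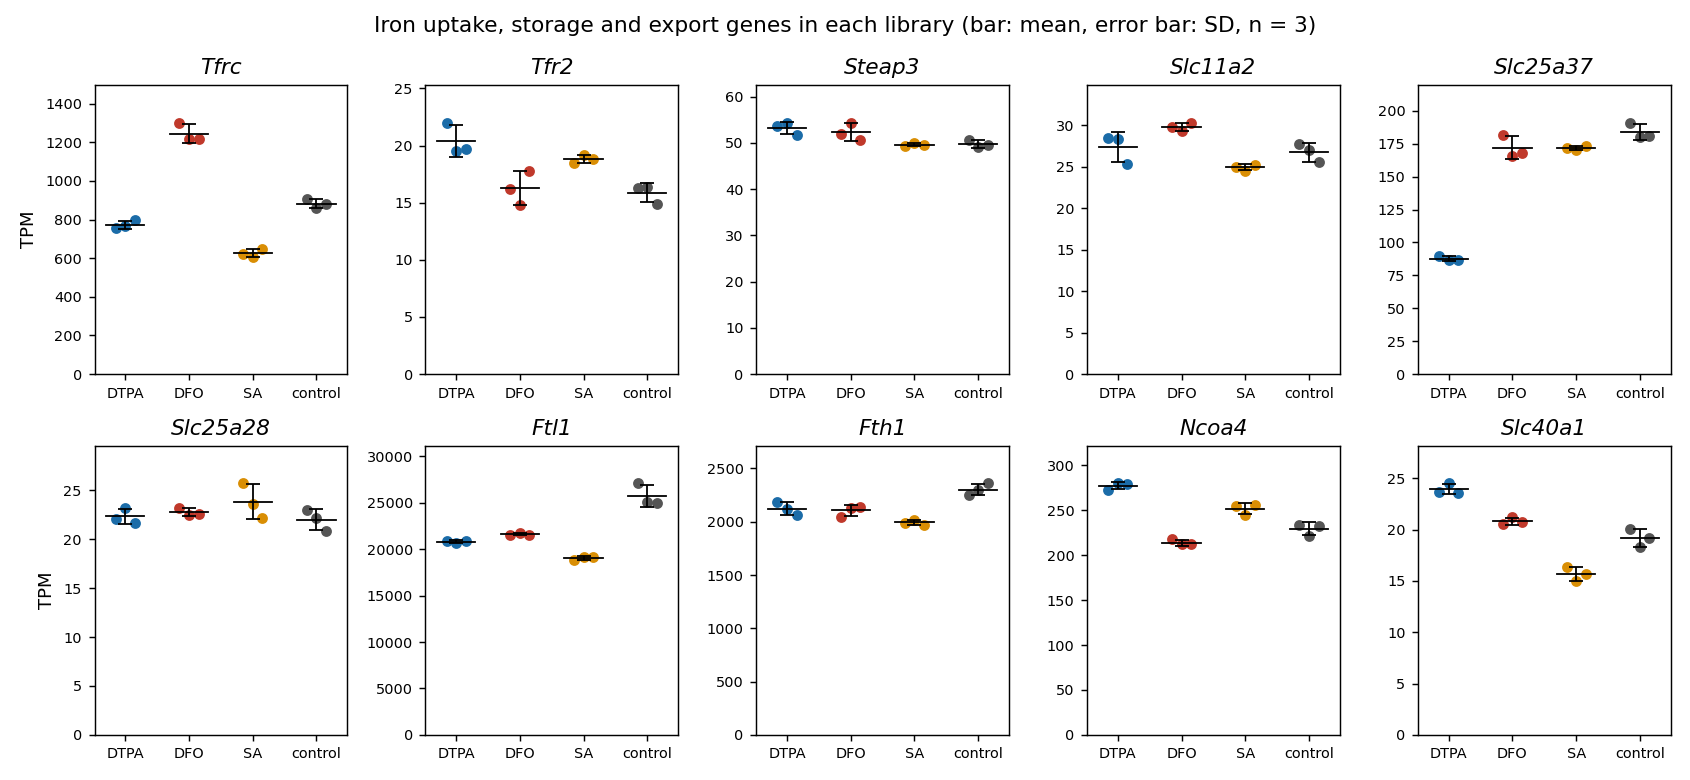
TPM of each of the 10 genes (y axes, from 0) in DTPA, DFO, SA and control cells, with 1 point per library, the mean as a bar and the SD as an error bar (n = 3). Tfrc stands highest in DFO cells, Slc25a37 lies near 88 TPM in DTPA cells and at 166 TPM or more elsewhere, and Ftl1 is highest in control cells.

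Tfrc (chr16:32608920-32632794, plus strand) encodes transferrin receptor 1, the main entry of iron into erythroid cells. It stood at 755, 769 and 797 TPM in DTPA cells, at 1302, 1217 and 1217 TPM in DFO cells, at 624, 606 and 648 TPM in SA cells, and at 909, 861 and 880 TPM in control cells. No 2 groups overlapped, and the order was DFO, control, DTPA, SA. Tfrc rose 1.41-fold with DFO (log2 fold change 0.50, SE 0.03, adjusted p = 1.94e-05). It fell to 0.709 of the control mean with SA (log2 fold change -0.50, SE 0.03, adjusted p = 2.93e-06). As deposited, DFO and SA thus moved Tfrc in opposite directions by like amounts, and DFO cells held 1.99 times the SA level (log2 fold change 0.99, adjusted p = 1.34e-07). Under median-of-ratios scaling the differences from control were 0.44 with DFO and -0.56 with SA. With DTPA the level was 0.876 of control (log2 fold change -0.19, adjusted p = 4.31e-04), and median-of-ratios scaling took this call away (log2 fold change -0.07, adjusted p = 0.0585). Tfrc ranked between 86 and 253 among all genes by TPM in the 12 libraries.

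Tfr2 (chr5:137569840-137587481, plus strand) encodes transferrin receptor 2, which binds transferrin and, in mouse erythroid cells, joins the erythropoietin receptor complex. It was a low transcript, with 22.0, 19.5 and 19.7 TPM in DTPA cells, 16.2, 14.8 and 17.8 TPM in DFO cells, 18.5, 19.2 and 18.8 TPM in SA cells, and 16.3, 16.4 and 14.9 TPM in control cells. DTPA and SA cells lay above all controls, while DFO cells spanned the control range. Tfr2 rose 1.28-fold with DTPA (log2 fold change 0.34, SE 0.07, adjusted p = 8.58e-04). With SA it was 1.19 times control (log2 fold change 0.23, adjusted p = 0.0297), a call that median-of-ratios scaling removed (0.18, adjusted p = 0.102) and that was lost without control replicate 3 (adjusted p = 0.108) or SA replicate 1 (0.0570), SA replicate 2 (0.0861) or SA replicate 3 (0.0724). The DFO difference was 0.03 (95% interval -0.12 to 0.18, adjusted p = 0.839).

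Steap3 (chr1:120190757-120272705, minus strand) encodes the endosomal reductase that makes ferrous iron from ferric iron. Its levels were 53.7, 54.4 and 51.8 TPM in DTPA cells, 51.9, 54.4 and 50.7 TPM in DFO cells, 49.4, 50.0 and 49.6 TPM in SA cells, and 50.7, 49.1 and 49.6 TPM in control cells. The whole spread across 12 libraries was small. Steap3 was 1.07 times control with DTPA (log2 fold change 0.10, SE 0.03, adjusted p = 0.0165), but this call was lost without control replicate 2 (adjusted p = 0.0538) or DTPA replicate 2 (adjusted p = 0.0646). With median-of-ratios scaling the DTPA difference was larger, at 0.22 (adjusted p = 5.88e-05). DFO cells differed from control by 0.07 (adjusted p = 0.183) and SA cells by -0.01 (adjusted p = 0.936).

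Slc11a2 (chr15:100387898-100425072, minus strand) encodes DMT1, the carrier that takes ferrous iron out of the endosome. It had 28.5, 28.3 and 25.3 TPM in DTPA cells, 29.8, 29.3 and 30.3 TPM in DFO cells, 25.0, 24.5 and 25.2 TPM in SA cells, and 27.7, 27.0 and 25.5 TPM in control cells. DFO cells lay above and SA cells below the control range, and DTPA cells overlapped it. None of the 3 treatments passed the test against control: the log2 difference was 0.03 with DTPA (adjusted p = 0.585), 0.15 with DFO (adjusted p = 0.0617) and -0.10 with SA (adjusted p = 0.170). Rescaling moved these values: with median-of-ratios scaling Slc11a2 was called higher with DTPA (0.15, adjusted p = 0.0148) and lower with SA (-0.16, adjusted p = 0.0365). Voom on recovered reads called it higher both with DTPA (0.10, adjusted p = 0.0430) and with DFO (0.14, adjusted p = 0.0492). DFO against SA was called, with DFO cells 1.20 times SA cells (log2 fold change 0.25, adjusted p = 0.00486), so Slc11a2 showed the same order of DFO over SA as Tfrc at a smaller size.

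The mitoferrins gave the widest change among the 10 genes, in 1 of the pair. Slc25a37 (chr14:69241848-69285112, minus strand) encodes mitoferrin 1, the mitochondrial iron importer of erythroid cells. It stood at 89.6, 87.0 and 86.8 TPM in DTPA cells, 182, 166 and 168 TPM in DFO cells, 172, 170 and 173 TPM in SA cells, and 191, 180 and 181 TPM in control cells. Every DTPA library lay far below every other library. Slc25a37 fell to 0.478 of control with DTPA (log2 fold change -1.06, SE 0.04, adjusted p = 1.84e-10), and median-of-ratios scaling left it at -0.93 (adjusted p = 2.92e-10). In the same DTPA libraries 9 of 13 erythroid markers were called lower and 2 higher, beside 42.1% and 23.5% of all genes. The part of these markers in the Slc25a37 fall was not tested. With DFO the difference was -0.10 (adjusted p = 0.107) and with SA -0.10 (adjusted p = 0.0669). Both were called lower under median-of-ratios scaling, at -0.15 for DFO (adjusted p = 0.0135) and -0.16 for SA (adjusted p = 0.00421). The DFO difference was also called without DFO replicate 1 (-0.14, adjusted p = 0.0164).

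Slc25a28 (chr19:43663801-43674881, minus strand) encodes mitoferrin 2, the importer found across tissues. It had 22.1, 23.2 and 21.7 TPM in DTPA cells, 23.2, 22.5 and 22.6 TPM in DFO cells, 25.7, 23.6 and 22.2 TPM in SA cells, and 23.0, 22.2 and 20.8 TPM in control cells. All 4 groups overlapped, and no treatment passed the test against control. The log2 differences were 0.02 with DTPA (95% interval -0.10 to 0.14), 0.05 with DFO (-0.07 to 0.17) and 0.11 with SA (-0.01 to 0.23). With median-of-ratios scaling the DTPA difference was 0.14 and was called (adjusted p = 0.0348). The ratio of Slc25a37 to Slc25a28 within a library does not depend on scaling, and it was 3.93 ± 0.16 in DTPA cells, 7.55 ± 0.27 in DFO cells, 7.22 ± 0.53 in SA cells and 8.37 ± 0.31 in control cells (SD, n = 3 each).

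**Figure D2:**
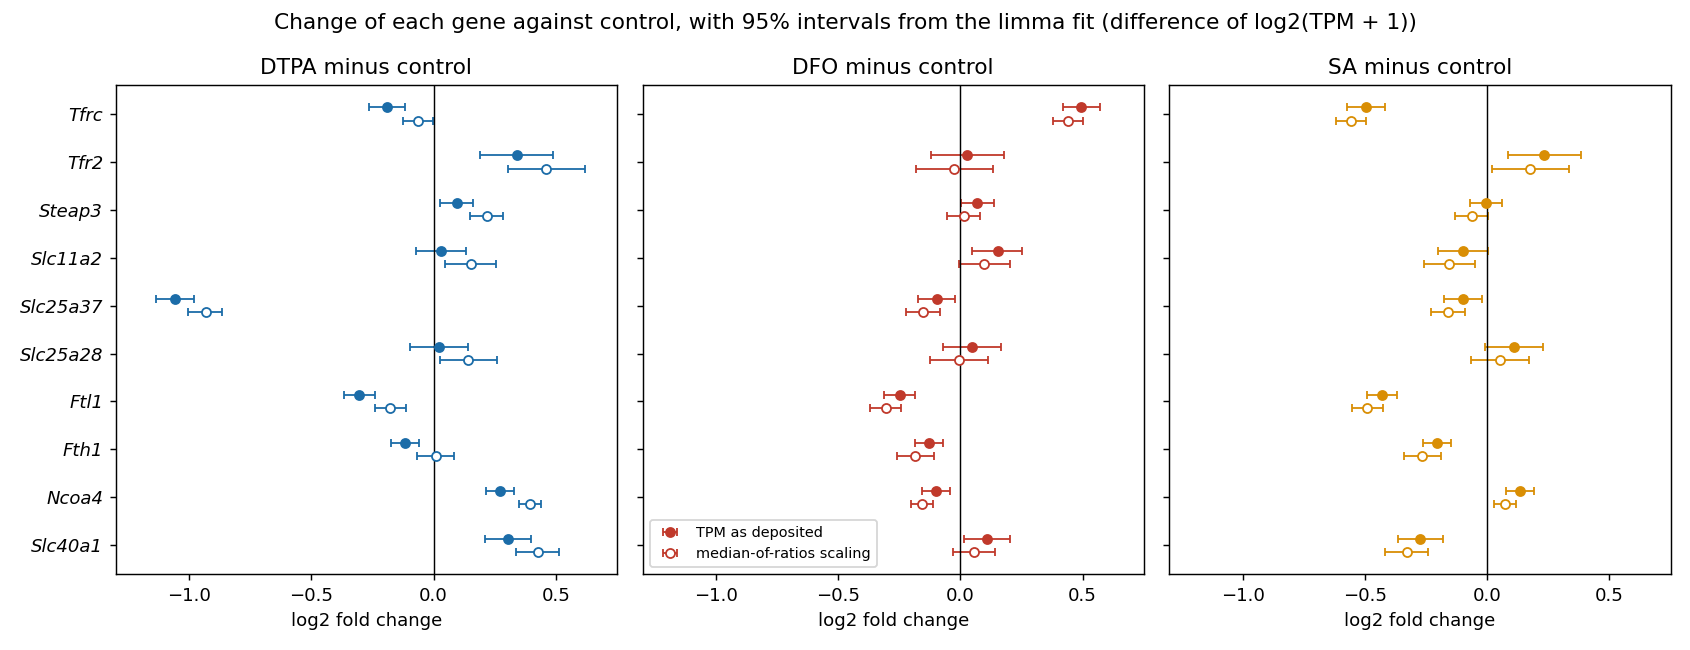
Log2 fold change of each gene against control (x axis, difference of log2(TPM + 1)) with its 95% interval from limma, for DTPA, DFO and SA. Filled points are TPM as deposited and open points median-of-ratios scaling. The filled Slc25a37 point at -1.06 with DTPA is the farthest from 0, and the filled Tfrc points lie at 0.50 with DFO and -0.50 with SA.

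Ftl1 (chr7:45457944-45459884, minus strand) encodes the ferritin light chain, which helps iron to mineralise inside the ferritin shell. It ranked between 1 and 3 of all genes in every library and made up between 1.88% and 2.71% of all TPM. Its level was 20923, 20612 and 20920 TPM in DTPA cells, 21540, 21759 and 21522 TPM in DFO cells, 18805, 19205 and 19143 TPM in SA cells, and 27082, 25090 and 24927 TPM in control cells. All 9 treated libraries lay below all 3 controls. Ftl1 fell with each treatment, to 0.810 of control with DTPA (log2 fold change -0.30, adjusted p = 1.59e-06), 0.841 with DFO (-0.25, adjusted p = 3.58e-04) and 0.741 with SA (-0.43, adjusted p = 1.95e-06). These falls were called under every scaling tried. With no filter on low values the DFO fall had the same size but missed the threshold (adjusted p = 0.0679).

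Near-identical copies could share reads with Ftl1. The pseudogene Ftl1-ps1 was listed at 31.3 to 45.7 TPM in DTPA cells, 37.9 to 44.3 in DFO cells, 34.8 to 36.1 in SA cells and 51.4 to 89.2 in control cells. It too was lower with each treatment, by log2 fold changes of -0.75 with DTPA (adjusted p = 0.00273), -0.63 with DFO (adjusted p = 0.0424) and -0.86 with SA (adjusted p = 0.00463). The other ferritin copies found, Ftl1-ps2, Ftl2-ps, Fth-ps2, Fth-ps3 and the Fthl17 rows, were at most 1.55 TPM. Summing Ftl1 with its copies, an alternative chosen after the data were seen, changed none of its calls.

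Fth1 (chr19:9980598-9985098, plus strand) encodes the ferritin heavy chain, which carries the ferroxidase centre. It had 2187, 2123 and 2062 TPM in DTPA cells, 2048, 2131 and 2139 TPM in DFO cells, 1992, 2019 and 1974 TPM in SA cells, and 2252, 2295 and 2360 TPM in control cells. The treated libraries again lay below the controls, though the gap to DTPA cells was narrow. Fth1 fell to 0.867 of control with SA (log2 fold change -0.21, adjusted p = 2.14e-04) and to 0.915 with DFO (-0.13, adjusted p = 0.0106). With DTPA it was 0.923 of control (-0.12, adjusted p = 0.00204), a call that did not outlast rescaling: the difference was 0.009 with median-of-ratios scaling (adjusted p = 0.835), -0.008 with trimmed-mean scaling (adjusted p = 0.848) and -0.04 with voom (adjusted p = 0.0912). The ratio of Ftl1 to Fth1 within a library was 9.81 ± 0.30 in DTPA cells, 10.3 ± 0.23 in DFO cells, 9.55 ± 0.13 in SA cells and 11.2 ± 0.76 in control cells (SD, n = 3 each). The light chain transcript thus took a smaller share of the ferritin pair in all 9 treated libraries than in any control.

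Ncoa4 (chr14:32159865-32179855, plus strand) encodes the receptor that delivers ferritin to the lysosome. Its level was 273, 280 and 279 TPM in DTPA cells, 218, 212 and 212 TPM in DFO cells, 255, 245 and 256 TPM in SA cells, and 234, 221 and 233 TPM in control cells. DTPA and SA cells lay above the controls and DFO cells below them. Ncoa4 rose 1.21-fold with DTPA (log2 fold change 0.27, SE 0.03, adjusted p = 2.31e-06) and 1.10-fold with SA (0.13, SE 0.03, adjusted p = 0.00364). With DFO it fell to 0.933 of control (-0.10, adjusted p = 0.0341), a call that was lost without control replicate 1 (adjusted p = 0.104), control replicate 3 (0.108), DFO replicate 2 (0.0989) or DFO replicate 3 (0.0971).

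The Ncoa4 values carry a further limit. The row of its processed copy Ncoa4-ps was higher than Ncoa4 itself, at 998 to 1058 TPM in DTPA cells, 792 to 820 in DFO cells, 912 to 957 in SA cells and 832 to 858 in control cells. How the authors' counting divided reads between the 2 rows is not given in the sources used here, so the level of Ncoa4 is uncertain. Ncoa4-ps had log2 fold changes of 0.28 with DTPA (adjusted p = 1.57e-06), -0.07 with DFO (adjusted p = 0.0969) and 0.14 with SA (adjusted p = 0.00247). With both rows summed, an alternative chosen after the data were seen, the DFO difference was -0.08 and missed the threshold (adjusted p = 0.0690), while the DTPA and SA calls were kept.

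Slc40a1 (chr1:45908068-45926523, minus strand) encodes ferroportin, the iron exporter. It had 23.7, 24.5 and 23.6 TPM in DTPA cells, 20.5, 21.2 and 20.7 TPM in DFO cells, 16.4, 15.0 and 15.7 TPM in SA cells, and 20.1, 18.3 and 19.2 TPM in control cells. No 2 groups overlapped, and the order was DTPA, DFO, control, SA. Slc40a1 rose 1.25-fold with DTPA (log2 fold change 0.31, SE 0.04, adjusted p = 5.28e-05) and fell to 0.818 of control with SA (-0.27, SE 0.04, adjusted p = 9.00e-04). The DFO difference of 0.11 did not pass the test (adjusted p = 0.132). DTPA cells held 1.52 times the SA level (log2 fold change 0.58, adjusted p = 1.96e-07). Macrophages are rich in ferroportin, and their markers summed to 1.89 to 2.60 TPM in DTPA cells, 1.84 to 3.24 in DFO cells, 2.25 to 3.32 in SA cells and 1.83 to 2.68 in control cells.

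Ratios of 2 transcripts within a library are free of scaling, and Tfrc over Ftl1 or Fth1 sets an uptake transcript beside a storage transcript. They do not read the amount of either protein. Tfrc over Ftl1 was 0.0361, 0.0373 and 0.0381 in DTPA cells, 0.0604, 0.0559 and 0.0566 in DFO cells, 0.0332, 0.0315 and 0.0338 in SA cells, and 0.0335, 0.0343 and 0.0353 in control cells. The DFO libraries stood apart from all others, DTPA libraries lay just above the controls, and SA libraries overlapped them. The mean ratio was 1.68 times control with DFO, 1.08 times with DTPA and 0.956 times with SA. Tfrc over Fth1 was 0.365 ± 0.021 in DTPA cells, 0.592 ± 0.038 in DFO cells, 0.314 ± 0.014 in SA cells and 0.384 ± 0.017 in control cells (SD, n = 3 each). On that measure DFO cells were above the controls, SA cells below them, and DTPA cells overlapped them. Tfrc over Tfr2 was 38.1 ± 3.3 in DTPA cells, 77.1 ± 7.6 in DFO cells, 33.3 ± 1.5 in SA cells and 55.7 ± 3.4 in control cells, with no overlap between any treatment and control. Of 15 such comparisons (5 ratios and 3 treatments), 13 gave the smallest p that 3 against 3 libraries allow in a two-sided exact permutation test, 0.10, or 0.115 after Benjamini-Hochberg adjustment over the 15. The other two were Tfrc over Ftl1 with SA (exact p = 0.20) and Tfrc over Fth1 with DTPA (exact p = 0.40). None could pass 0.05 in this design.

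**Figure D3:**
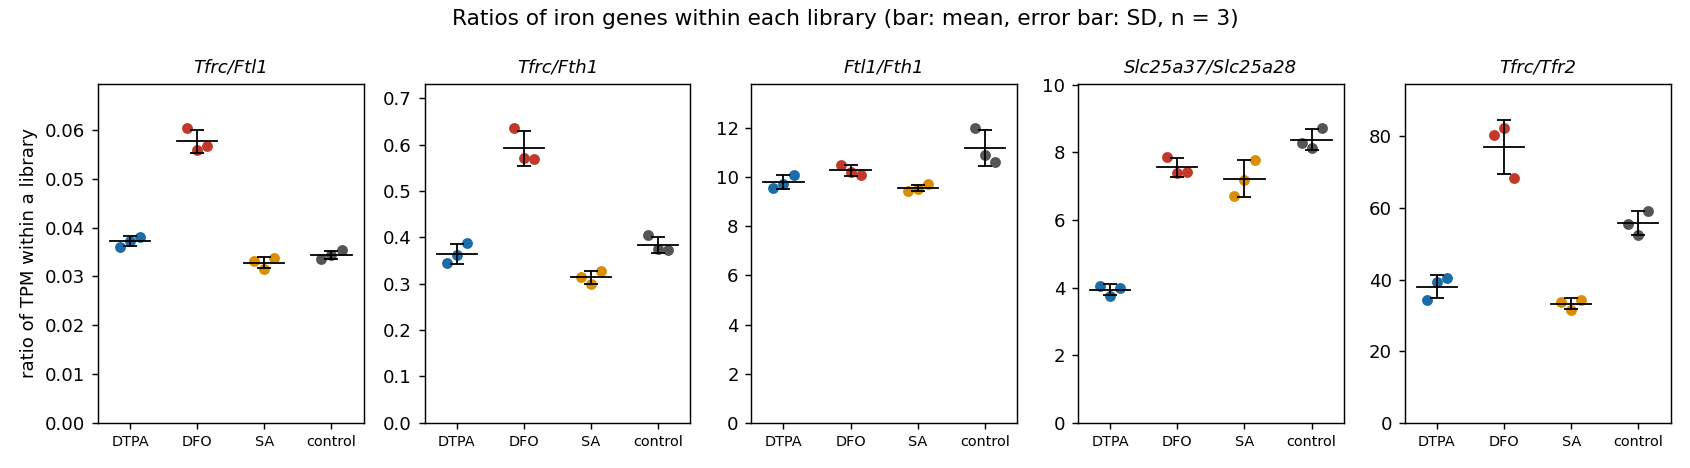
Ratios of TPM of 2 genes within each library (y axes, from 0) in DTPA, DFO, SA and control cells, with 1 point per library, the mean as a bar and the SD as an error bar (n = 3). Tfrc over Ftl1 is highest in the 3 DFO libraries, and Slc25a37 over Slc25a28 is lowest in the 3 DTPA libraries.

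Set against one another, DTPA and DFO differed in 6 of the 10 genes, 3 higher and 3 lower in DTPA cells, where 65.9% of all tested genes were called, 19.5% higher and 46.4% lower. The groups did not overlap for 7 of the 10, beside 69.6% of all genes. Under median-of-ratios scaling 7 of the 10 were called higher and 2 lower, and the split of all calls moved from 2330 higher and 5528 lower to 3732 and 3860. Slc11a2, called lower in DTPA cells as deposited (-0.12, adjusted p = 0.0389), was not called after that rescaling (0.05, adjusted p = 0.339). Tfrc was 0.621 of its DFO level in DTPA cells (log2 fold change -0.69, adjusted p = 7.09e-09), and Ncoa4 was 1.29 times its DFO level (0.37, adjusted p = 1.46e-07). Both ferritin chains were close in these 2 groups as deposited, with log2 differences of -0.05 for Ftl1 (95% interval -0.12 to 0.01) and 0.01 for Fth1 (-0.05 to 0.07). Under median-of-ratios scaling both were called higher in DTPA cells, at 0.13 for Ftl1 (adjusted p = 0.00210) and 0.19 for Fth1 (adjusted p = 4.06e-04). DTPA and SA differed in 8 genes, 7 higher and 1 lower in DTPA cells, against a background of 67.1% (20.1% higher and 47.0% lower), and did not overlap for 9, beside 70.4%. Under median-of-ratios scaling the 10 genes gave 8 higher and 1 lower, while the split of all calls moved from 2395 higher and 5599 lower to 3763 and 3933. The contrast with a mostly lower background thus depends on scaling. With no filter on low values the Ftl1 call in this comparison was lost (0.13, adjusted p = 0.171). The 1 lower gene was Slc25a37, at 0.512 of its SA level (log2 fold change -0.96, adjusted p = 4.28e-10).

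DFO and SA, which act on iron and on the porphyrin ring that receives it, differed in 5 of the 10 genes, 4 higher and 1 lower in DFO cells, against a background of 13.5% (7.21% higher and 6.31% lower). They did not overlap for 8, beside 31.9%. Tfrc, Slc11a2, Ftl1 and Slc40a1 were higher in DFO cells and Ncoa4 was lower, and all 5 were called under the 3 scalings. For Slc40a1 the means were 20.8 ± 0.34 TPM in DFO cells and 15.7 ± 0.67 TPM in SA cells (log2 fold change 0.38, adjusted p = 1.59e-04). Ftl1 averaged 21607 ± 132 TPM in DFO cells and 19051 ± 215 TPM in SA cells (0.18, adjusted p = 0.00150), and with no filter on low values this call was lost (adjusted p = 0.168). Ncoa4 averaged 214 ± 3.5 TPM in DFO cells and 252 ± 6.0 TPM in SA cells (-0.23, adjusted p = 1.65e-04). Slc25a37 differed by 0.002 (95% interval -0.08 to 0.08) and Slc25a28 by -0.06 (-0.18 to 0.06) between these 2 treatments.

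Other genes of iron handling were read in 4 lists. Of 14 regulators of iron and heme response 9 were tested. With DTPA 2 were called higher and 5 lower (4 and 2 under median-of-ratios scaling), where 23.5% of all genes were called higher and 42.1% lower. Aco1, which encodes iron regulatory protein 1, averaged 164 ± 2.3 TPM in DTPA cells, 128 ± 3.1 in DFO cells, 110 ± 1.6 in SA cells and 117 ± 0.7 in control cells. It rose with DTPA (log2 fold change 0.48, adjusted p = 3.08e-09). With DFO it was the only regulator called (0.13, adjusted p = 0.00424), beside 10.7% of all genes. Median-of-ratios scaling lost that DFO call (0.07, adjusted p = 0.0793). With SA 1 regulator was called higher and 3 lower (0 and 5 rescaled), against backgrounds of 15.4% and 6.74%, and Aco1 was lower (-0.09, adjusted p = 0.0174). Pcbp1, an iron chaperone that loads ferritin, averaged 614 ± 4.9 TPM in DTPA cells and 748 ± 15 in SA cells, against 851 ± 16 in control cells (DTPA -0.47, adjusted p = 3.84e-09; SA -0.19, adjusted p = 1.42e-04).

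Of 20 genes of the transferrin cycle 11 were tested. With DTPA 2 were called higher and 9 lower (2 and 8 rescaled), where 23.5% of all genes were called higher and 42.1% lower. The median log2 fold change was -0.26 beside -0.11 for all genes. Cltc, the clathrin heavy chain that coats the vesicles taking in transferrin receptor, averaged 189 ± 2.7 TPM in DTPA cells and 337 ± 12 in control cells (-0.83, adjusted p = 8.35e-10). Dnm2, the dynamin that cuts those vesicles free, averaged 128 ± 2.1 TPM in DTPA cells and 206 ± 3.7 in control cells (-0.68, adjusted p = 6.13e-09). With DFO limma called 0 of the 11, where 8.39% of all genes were called higher and 2.28% lower. Among them 2 had an unadjusted p under 0.05, and voom called 0 higher and 1 lower. With SA 1 was called higher and 4 lower, also after rescaling, beside 15.4% and 6.74% of all genes. Exoc6, an exocyst subunit whose loss causes anaemia in the hemoglobin-deficit mouse, averaged 73.6 ± 1.5 TPM in SA cells and 81.9 ± 1.8 in control cells (-0.15, adjusted p = 0.00196). With DTPA Exoc6 was called higher instead, at 87.5 ± 2.0 TPM (0.09, adjusted p = 0.00850).

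Of 16 other iron and heme transport genes 9 were tested. With DTPA 2 were called higher and 6 lower (3 and 4 rescaled), beside 23.5% and 42.1% of all genes. With DFO the counts were 0 and 2 (also rescaled), beside 8.39% and 2.28%, and with SA 2 and 4 (1 and 4 rescaled), beside 15.4% and 6.74%. Slc48a1, which encodes the endosomal heme carrier HRG1, averaged 252 ± 1.2 TPM in DTPA cells, 116 ± 1.9 in DFO cells, 89.8 ± 0.90 in SA cells and 134 ± 3.3 in control cells. It rose with DTPA (0.91, adjusted p = 1.11e-11) and fell with DFO (-0.21, adjusted p = 2.53e-04) and SA (-0.57, adjusted p = 4.53e-08). Flvcr1, a heme exporter of red cell precursors, had the same signs, at 79.7 ± 1.6 TPM in DTPA cells, 38.8 ± 1.6 in DFO cells, 33.5 ± 2.5 in SA cells and 44.8 ± 2.2 in control cells. All 3 of its differences were called, with log2 fold changes of 0.82 (adjusted p = 6.54e-08), -0.20 (adjusted p = 0.0327) and -0.41 (adjusted p = 2.36e-04).

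Of 13 genes listed under mitochondrial iron use 12 were tested. The list also holds genes of cytosolic iron-sulfur cluster assembly, such as Ciapin1. With DTPA 2 were called higher and 6 lower (4 and 4 rescaled), 8 of 12 in all, beside 65.5% of all genes called in either direction. With DFO the counts were 0 and 3 (0 and 4 rescaled), beside 8.39% higher and 2.28% lower over all genes, and with SA 3 and 4 (1 and 5 rescaled), beside 15.4% and 6.74%. Ciapin1, which acts in iron-sulfur cluster assembly in the cytosol, averaged 19.2 ± 0.51 TPM in DTPA cells, 23.5 ± 0.90 in DFO cells, 23.9 ± 0.71 in SA cells and 26.5 ± 0.71 in control cells. It fell with DTPA (-0.45, adjusted p = 9.73e-07), DFO (-0.17, adjusted p = 0.0190) and SA (-0.14, adjusted p = 0.0229). Alas2, which starts heme synthesis in red cells and whose mRNA is known to carry a 5′ iron-responsive element, averaged 3002 ± 10 TPM in DTPA cells, 2137 ± 38 in DFO cells, 2164 ± 13 in SA cells and 2268 ± 18 in control cells. It rose with DTPA (0.40, adjusted p = 8.26e-10) and fell with DFO (-0.09, adjusted p = 0.00662) and SA (-0.07, adjusted p = 0.0110).

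**Figure D4:**
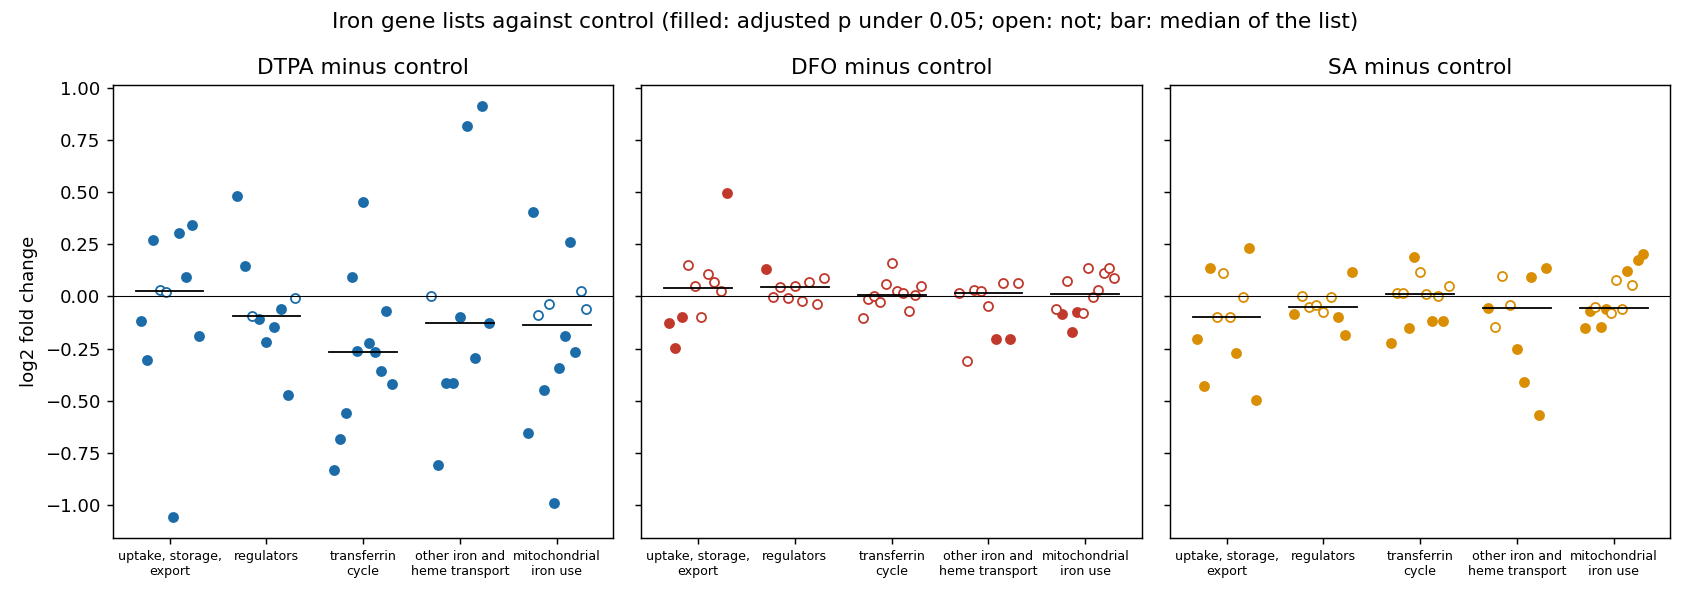
Log2 fold change against control (y axis) of each tested gene in the set of 10 and in the 4 other iron lists, for DTPA, DFO and SA. Filled points had an adjusted p under 0.05 in limma, open points did not, and the bar is the median of the list. The points spread widest with DTPA, and with DFO the highest point is Tfrc at 0.50.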

How the data were processed

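Per the labels' protocols, mRNA of G1E-ER4 cells was sequenced from 12 stranded libraries. Reads were handled with Trimmomatic 0.33, FastQC, HISAT2 2.1.0, featureCounts and edgeR on build mm10, per the submitters' processing notes. How multi-mapping reads were counted is not given in the sources used here, nor is the annotation release. Each library has 1 table of 55487 rows that the authors deposited in TPM. TPM times exon length (GENCODE M21) gave whole reads, within 0.1 read, for 98.8% to 99.0% of values up to 200 reads. This recovered the depth.

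The 11920 genes that reached 1 TPM in 3 or more libraries were fitted as log2(TPM + 1) with limma 3.58.1 (R 4.3.3), 1 mean per group over 12 libraries, a mean-variance trend and no covariate. Tests were two-sided, with Benjamini-Hochberg adjustment over all tested genes and 0.05 as the threshold. Such fold changes understate the change of low genes. Multiples are ratios of mean TPM. Ratios of genes were tested by exact permutation (scipy 1.17.1, Python 3.11.15). The fit was tested on simulated data.

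The members and gene lists were chosen with earlier results of these data known. Named were all 10 members, and from each other iron list some of up to 4 called genes per comparison with the largest absolute log2 fold change and a mean of at least 1 TPM. Some results that this rule gives are not reported here. Ahsp was not found under that symbol. Alternatives were a pseudocount of 0.1 or 5, a filter of 5 TPM or none, median-of-ratios or trimmed-mean scaling, removal of globin genes, robust empirical Bayes, a fit of just the 6 libraries compared, a replicate block, leaving out each library, voom on recovered reads (at least 10 reads) and, chosen after the data were seen, copies summed.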

Additional observations from a re-analysis of the deposited data

How the results depend on the processing

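Of 516 recomputed log2 fold changes of the 10 genes against control, 465 kept direction and side of the threshold, 21 lost the call, 19 gained one and 11 changed sign. Between treatments 469 of 516 were kept, 16 lost the call, 15 gained one and 16 changed sign. A change of sign was counted only as such, even where a call was lost or gained with it, so the numbers lost and gained leave those cases out. All 96 recomputed ratios kept their direction. The count of genes called in DFO against control was 2 with no filter, against 4, and the other 101 counts stayed within 1.5 times. Where a call or direction changed, the cause was not tested.

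Under median-of-ratios scaling the sign changed for Fth1 in DTPA against control (0.009), for Tfr2 (-0.025) and Slc25a28 (-0.005) in DFO against control, for Slc11a2 (0.055), Slc25a28 (0.148) and Ftl1 (0.128) in DTPA against DFO, and for Slc25a28 in DTPA against SA (0.090). Under trimmed-mean scaling it changed for Tfr2 (-0.024) and Slc25a28 (-0.004) in DFO against control, for Slc11a2 (0.037), Slc25a28 (0.130) and Ftl1 (0.110) in DTPA against DFO, and for Slc25a28 in DTPA against SA (0.070). With globin genes removed Slc25a28 turned to 0.014 in DTPA against DFO. With voom Slc25a28 (0.069) and Ftl1 (0.043) turned in DTPA against DFO, and Slc25a37 (-0.002) in DFO against SA.

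Leaving out 1 library at a time, the sign changed for Slc11a2 (-0.002 to 0.084) and Slc25a28 (-0.017 to 0.055) in DTPA against control, Tfr2 in DFO against control (-0.035 to 0.091), Steap3 in SA against control (-0.015 to 0.008), Fth1 in DTPA against DFO (-0.009 to 0.033) and Slc25a37 in DFO against SA (-0.040 to 0.028). None of these 6 differences was called with all libraries. In DTPA against DFO the call of Slc11a2 (adjusted p = 0.0389) was lost without DTPA replicate 3 (0.164) or DFO replicate 1 (0.0757), DFO replicate 2 (0.0529) or DFO replicate 3 (0.108). In DTPA against SA its call (0.0297) was lost without DTPA replicate 1 (0.111), DTPA replicate 2 (0.106), SA replicate 1 (0.0573) or SA replicate 2 (0.0813), and that of Steap3 (0.0124) without DTPA replicate 2 (0.0510). Calls were gained for Slc25a28 in DTPA against SA without SA replicate 3 (-0.136, adjusted p = 0.0447), and in DFO against SA for Tfr2 without DFO replicate 3 (-0.269, adjusted p = 0.0287) and for Fth1 without DFO replicate 1 (0.098, adjusted p = 0.0494).

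The replicate numbers gave no sign of pairing. Deviations of same-numbered libraries correlated between -0.043 and 0.053, and those of differently numbered libraries between -0.062 and 0.057. These values do not tell how the cultures were set up. With the replicate number as a block, 8 of the 10 genes were called with DTPA, 5 with DFO and 7 with SA. The 2 calls gained were Slc25a37 lower with DFO (-0.097, adjusted p = 0.0494) and with SA (-0.099, adjusted p = 0.0247).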

Other observations

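For each of the 10 genes, the other tested gene with a mean of at least 5 TPM whose log2(TPM + 1) followed it most closely over the 12 libraries is given as a description, since all points share the 4 groups and their scaling. Rows named as predicted gene models or by clone were left out of this search. Tfrc ran with Nfe2l2 (r = 0.949), Tfr2 with Mpv17 (0.943), Slc11a2 with Arpc1b (0.943), Steap3 with Pptc7 (0.923) and Slc25a37 with Nup155 (0.998). Slc25a28 ran with Kifap3 (0.847), Ftl1 with Slc22a23 (0.951), Fth1 with Hba-a1 (0.927), Ncoa4 with its copy Ncoa4-ps (0.992) and Slc40a1 with Pros1 (0.972).

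Globin transcripts made up 4.96% to 5.89% of TPM in DTPA cells, 2.44% to 2.54% in DFO cells, 1.97% to 2.18% in SA cells and 3.43% to 3.97% in control cells. Ribosomal protein transcripts made up 12.2% to 12.7% in DTPA cells, 9.53% to 9.64% in DFO cells, 10.0% to 10.3% in SA cells and 8.53% to 8.77% in control cells. Both classes enter the total to which every TPM value is scaled.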
